A study of Homo sapiens with 6 samples.

Results

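Interferons and many cytokines signal through receptors that carry Janus kinases, of which JAK1 and TYK2 serve the type I interferon receptor. The kinases phosphorylate signal transducers and activators of transcription (STATs), and STAT2 joins interferon regulatory factor 9 (IRF9) in the complex ISGF3, which binds the interferon-stimulated response element (ISRE) of target genes. STAT dimers bind a different element, the gamma-activated sequence (GAS), IRF1 and IRF2 act on IRF elements as an activator and mainly a repressor, and IRF3 and IRF7 switch on the interferon genes themselves once a nucleic acid sensor has fired.

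The genes described here are 9 members of this pathway, JAK1, TYK2, STAT2, STAT3, IRF1, IRF2, IRF3, IRF7 and IRF9, taken by symbol from a count table of 36517 genes. All 9 had enough reads to be among the 19628 genes tested. The transcriptome was that of MDA-MB-453, an established human breast cancer cell line. The sample titles give day 3 for all libraries, without saying from what point the days were counted. Control cells (n = 3) carried a lentiviral negative-control hairpin (shNC), and shtRF cells (n = 3) carried a lentiviral hairpin against tRF-1-Ser, a small RNA cut from a serine transfer RNA precursor. The labels name no interferon or other stimulus for either group, so the values describe the pathway without a named stimulus. Both groups carried a lentiviral hairpin and no untransduced cells were included, so the level in unmodified cells is not known. The methods call the replicates biological, but it is not stated whether they came from separate transductions, and if they did not, the p-values measure only the spread between dishes or libraries. The hairpin target is not measured in these messenger RNA libraries, so the group names rest on the labels.

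Library totals ran from 63541413 to 78917459 counts. Between replicates, the coefficient of variation beyond counting noise was 7.56%, as fitted by edgeR over all tested genes. The cell line was checked against marker genes. EPCAM, an epithelial surface protein, stood at a mean of 203.7 RPKM (reads per kilobase of exon, scaled to 1000000 counted reads) in control and 215.0 RPKM in shtRF cells. Of the leukocyte markers, PTPRC, CD3E, MS4A1, CD14, LYZ and CSF1R had at most 12 counts in any library, and NCAM1, which is not restricted to leukocytes, had 231 to 617 and was higher in shtRF cells (log2 fold change 0.96). The fibroblast gene COL1A1 had 1274 to 2416 counts (mean 3.339 RPKM in control) and fell by 0.62 on the log2 scale. COL1A2, COL3A1 and DCN had at most 20 counts in any library. Of the basal markers, TP63 had 117 to 218 counts and fell by 0.54 on the log2 scale. KRT5 and KRT14 had at most 24 counts in any library. The part of these genes in the results was not tested. The estrogen receptor gene ESR1 had at most 26 counts.

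Without a named stimulus the 9 genes spanned a wide range of levels. In the control libraries IRF9 was the highest, at 33.0 to 36.3 RPKM, followed by IRF3 at 24.5 to 30.4 RPKM. Both exceeded the upper decile of all tested genes, 23.7 RPKM. IRF9 and IRF3 share 48.4% and 19.3% of their exonic bases with other annotated units, as described below, so their levels and ranks are uncertain. IRF7 (6.73 to 8.18 RPKM) and IRF2 (5.85 to 6.83 RPKM) came next and their ranges overlapped. JAK1 lay below them at 4.46 to 5.37 RPKM. STAT2 (3.35 to 4.04 RPKM), TYK2 (3.119 to 3.83 RPKM) and STAT3 (3.06 to 3.47 RPKM) overlapped in that order and all lay above the median of tested genes, 2.39 RPKM. IRF1 was the lowest, at 0.818 to 0.981 RPKM, and the only one of the 9 below the median. These levels are scaled to the union of all annotated exons, which for IRF1 spans 7799 bases and for IRF2 3116, so a gene with long rarely used exons is placed low.

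**Figure D1:**
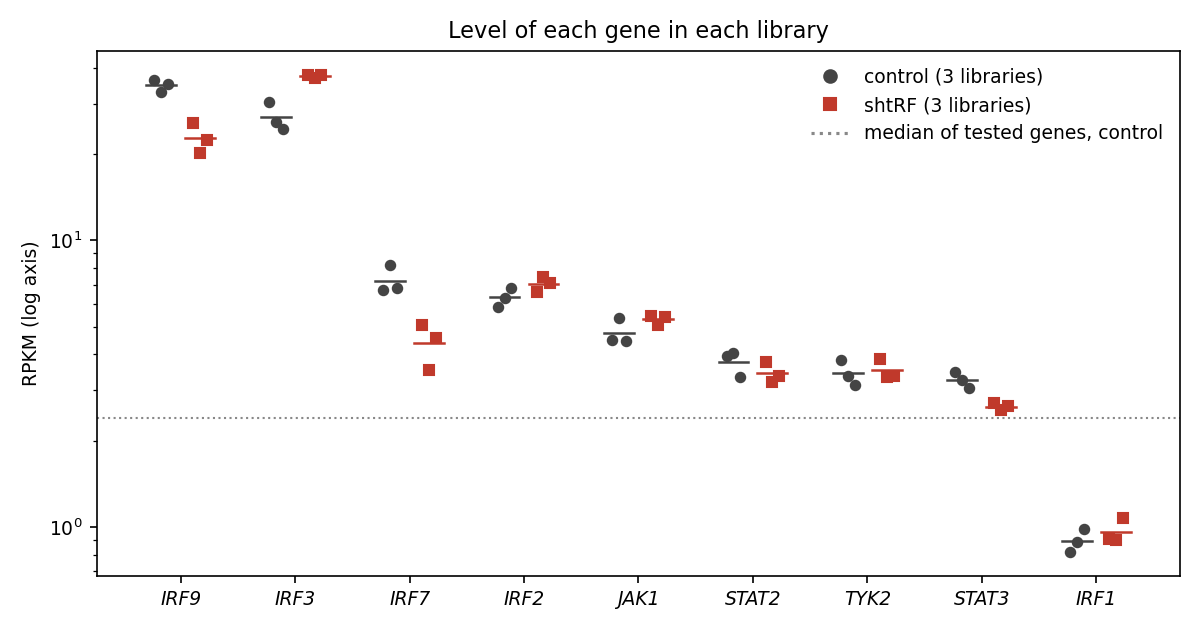
Level in RPKM (log axis) of each of the 9 genes in each library, in order of the control mean, with grey circles for the 3 control and red squares for the 3 shtRF libraries, short bars for group means and a dotted line at the median of tested genes in control. IRF9 and IRF7 lie lower in all 3 shtRF libraries and IRF3 lies higher, while IRF1 stays under the dotted line in both groups.

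Of the 9 genes, IRF3, IRF2 and JAK1 were higher in shtRF cells and IRF7, IRF9 and STAT3 were lower at an adjusted p under 0.05 (edgeR quasi-likelihood test, Benjamini-Hochberg adjustment over all tested genes). STAT2, IRF1 and TYK2 did not pass the test. Of all tested genes, 20.6% were called higher and 18.9% lower, 39.5% in either direction, so 3 and 3 calls among 9 genes lie on a background on which such calls are common. The control and shtRF libraries did not overlap for 5 of the 9 (IRF3, IRF7, IRF9, STAT3 and JAK1), against 48.7% of all tested genes. The median log2 fold change of the 9 was 0.09, against -0.0025 for all tested genes. The 3 largest changes by size were those of IRF7, IRF9 and IRF3, and the calls of IRF2 and JAK1 were lost under several other processing choices given beside their values. In RNA from whole cultures, a change in the number of cells that make a transcript and a change in its amount per cell cannot be told apart.

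Sequence elements were looked up first, because ISRE and GAS letters in a promoter place a gene as a possible target of this same pathway. RefSeq promoter windows (GRCh38.p14, 250 bases before to 50 bases after each annotated start) were searched on both strands for GAAA, any 2 bases and GAAA as the ISRE, and for TTC, any 3 bases and GAA as the GAS. Windows were found for 6 of the 9 genes, JAK1, TYK2, STAT2, STAT3, IRF1 and IRF9. The ISRE letters were in 0 of these 6, against 4.38% of the 27305 genes with a window. In so few genes 0 matches cannot be told apart from that share. The GAS letters were in 2 of the 6, IRF9 and IRF1, against 9.38% of genes. With so few genes this count cannot show an excess over that share either. The GAS letters began 63 bases before the start of IRF9 and 124 bases before that of IRF1. Both elements are shown on the strand of the gene with the match in capitals, IRF9 at chr14:24161192-24161221 on the plus strand and IRF1 at chr5:132490863-132490922 on the minus strand. The IRF9 stretch is kept short because the deposited gene model counts it as exon.
IRF9: accacgtgatTTCTGGGAAaaggccctccc
IRF1: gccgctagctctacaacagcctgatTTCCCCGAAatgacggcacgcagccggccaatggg

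In a list of GAS and IRF1 target genes described below, the ISRE letters were in 81.2% of the genes with a window. A further list held 42 ISGF3 target genes, chosen as interferon-stimulated genes. There the letters were in 26 of the 36 genes with a window (72.2%). The elements of 6 of these genes that recur below are shown to set the ISRE beside the GAS, each read on the strand of its gene with 1 match in capitals. IFI44L lies at chr1:78620259-78620318, IFI44 at chr1:78649761-78649790, IFI27 at chr14:94110603-94110662, IFI6 at chr1:27672314-27672373 (minus strand), MX1 at chr21:41420559-41420588 and BST2 at chr19:17405741-17405770 (minus strand). In IFI27 and BST2 a second match follows in lower case, overlapping the first in BST2. Further matches of IFI44L, IFI6 and MX1 lie outside the stretches shown.
IFI44L: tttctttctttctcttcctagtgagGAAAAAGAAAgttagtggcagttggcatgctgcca
IFI44: gcacactgagTTTCAGTTTCctttctctga
IFI27: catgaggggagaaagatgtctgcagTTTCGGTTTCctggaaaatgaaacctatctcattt
IFI6: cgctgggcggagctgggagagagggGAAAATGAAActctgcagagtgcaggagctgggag
MX1: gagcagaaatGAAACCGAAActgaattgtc
BST2: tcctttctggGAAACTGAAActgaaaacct
A match is a description of the letters and not evidence of binding.

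The kinases showed small differences. JAK1, which pairs with receptors of interferons and of the interleukin 6 family, lies at chr1:64833229-64966504 on the minus strand. Its normalised level was 27.8, 33.1 and 27.8 CPM (counts scaled to a library total of 1000000) in control replicates 1 to 3 and 34.2, 33.2 and 34.99 CPM in shtRF replicates 1 to 3. The groups did not overlap, but control replicate 2 lay just under the lowest shtRF library. The log2 fold change was 0.21 ± 0.070 (SE), with an adjusted p of 0.0222 by edgeR. This call was lost with counts scaled to library totals alone (adjusted p = 0.108) and in 4 of the 6 fits that left out 1 library, those without control replicate 1, control replicate 3, shtRF replicate 1 or shtRF replicate 3 (adjusted p 0.0676 to 0.118).

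TYK2, the partner of JAK1 at the type I interferon receptor (chr19:10350529-10380676, minus strand), stood at 25.5, 22.1 and 20.9 CPM in control and 25.8, 23.5 and 23.4 CPM in shtRF libraries. Control replicate 1 lay above 2 of the 3 shtRF libraries, so the groups overlapped. The log2 fold change was 0.09 with a 95% confidence interval of -0.07 to 0.25 (adjusted p = 0.394, edgeR).

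Of the 2 STAT genes, STAT3 passed the test and STAT2 did not. STAT2, the subunit that gives ISGF3 its activation domain (chr12:56341597-56360155, minus strand), had 23.6, 24.1 and 20.2 CPM in control and 22.8, 20.4 and 21.1 CPM in shtRF libraries. The groups overlapped, and the log2 fold change was -0.08 with a 95% confidence interval of -0.24 to 0.08 (adjusted p = 0.456, edgeR). STAT3, the main STAT downstream of interleukin 6 type cytokines (chr17:42313324-42388568, minus strand), had 30.1, 28.1 and 26.6 CPM in control and 23.6, 23.4 and 23.8 CPM in shtRF libraries. All 3 shtRF libraries lay below all 3 control libraries, and they differed little among themselves. STAT3 fell by 0.26 ± 0.066 (SE) on the log2 scale, with an adjusted p of 0.00332.

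The IRF genes showed the largest differences and no common direction. IRF1, an activator induced by interferon gamma (chr5:132481609-132490798, minus strand), had 6.27, 6.71 and 7.57 CPM in control and 7.03, 7.28 and 8.55 CPM in shtRF libraries. The groups overlapped, and the log2 fold change of 0.15 had a 95% confidence interval of -0.08 to 0.38 (adjusted p = 0.297, edgeR). IRF2, which competes with IRF1 for the same elements (chr4:184387713-184474580, minus strand), had 17.9, 19.1 and 21.0 CPM in control and 20.3, 24.1 and 22.6 CPM in shtRF libraries. Control replicate 3 lay above shtRF replicate 1, so the groups overlapped. IRF2 rose by 0.21 ± 0.079 (SE) on the log2 scale with an adjusted p of 0.0423, close to the threshold. The adjusted p was 0.0542 with DESeq2 and 0.0101 to 0.217 when 1 library was left out, above the threshold in 4 of 6 such fits (without control replicate 1, control replicate 2, shtRF replicate 2 or shtRF replicate 3).

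IRF3 is the constitutively made factor that sensor pathways activate by phosphorylation. Its level was 113.4, 95.6 and 92.0 CPM in control and 142.6, 145.4 and 147.2 CPM in shtRF libraries. Every shtRF library lay above every control library, and control replicate 1 was the highest of its group. The mean rose by 44.6%, a log2 fold change of 0.53 ± 0.065 (SE) with an adjusted p of 8e-07. IRF3 (chr19:49659569-49665875, minus strand) shares 19.3% of its exonic bases with BCL2L12, a gene on the opposite strand that was higher by 0.58 ± 0.066 (SE, log2 fold change) and held 90.1% as many counts as IRF3. The kit kept strand, but whether the counting used it is not stated, so reads from the shared stretch cannot be assigned to either gene and the size of the IRF3 change is uncertain.

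IRF7, the factor that amplifies type I interferon production and is itself interferon-inducible (chr11:612553-615999, minus strand), had 17.4, 21.0 and 17.7 CPM in control. In shtRF libraries it had 13.3, 9.63 and 12.2 CPM. The groups were separate, with shtRF replicate 2 the lowest of the 6. IRF7 fell by 0.67 ± 0.102 (SE) on the log2 scale, which is 37.3% by the means, with an adjusted p of 1.49e-05.

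IRF9, the DNA-binding subunit of ISGF3, had 135.5, 122.0 and 131.4 CPM in control and 96.3, 79.8 and 86.8 CPM in shtRF libraries. The highest shtRF library lay below the lowest control library. IRF9 fell by 0.56 ± 0.064 (SE) on the log2 scale, or 32.4% by the means, with an adjusted p of 2.87e-07. IRF9 (chr14:24161053-24166565, plus strand) shares 48.4% of its exonic bases with an annotated unit on the same strand that runs on from exons of RNF31, the gene before it. That unit fell by 0.54 ± 0.063 (SE) and RNF31 fell by 0.36 ± 0.069 (SE) on the log2 scale. Reads over the shared exons cannot be told apart between IRF9 and the longer unit, which held 110% as many counts as IRF9.

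**Figure D2:**
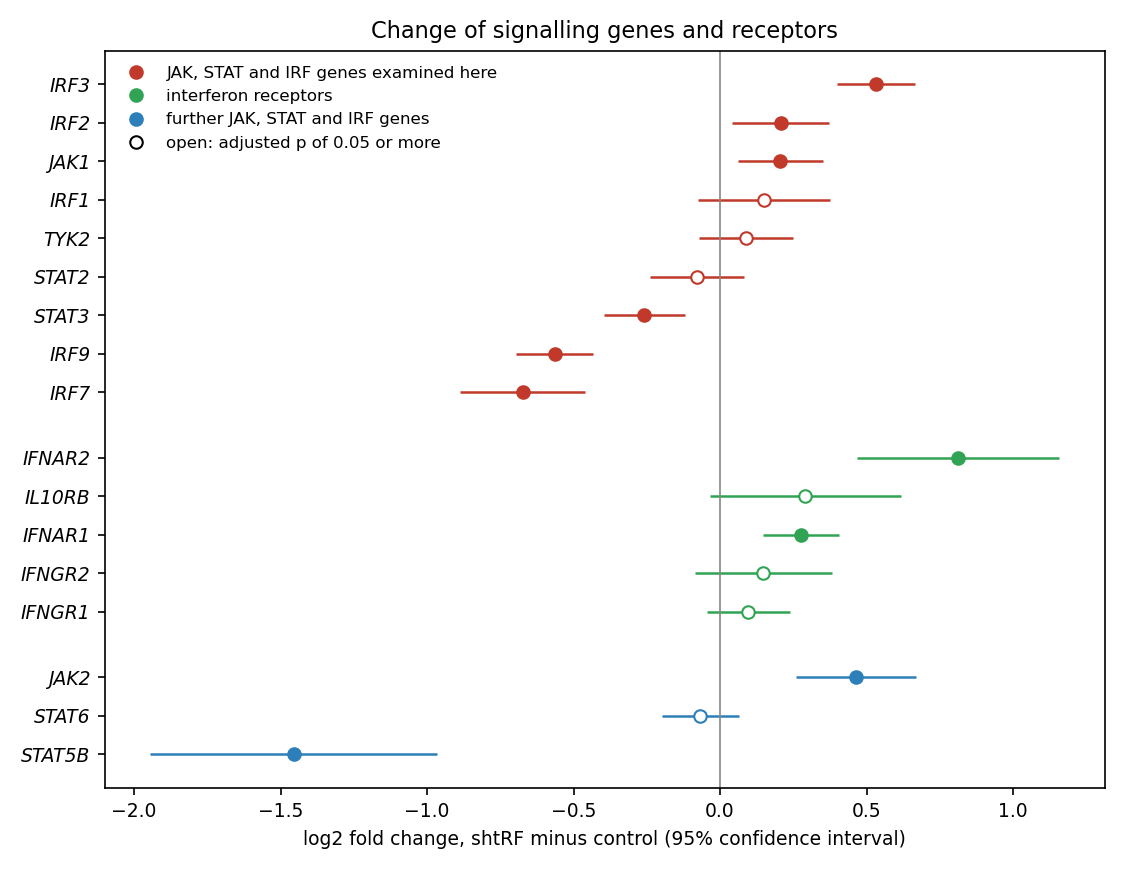
Log2 fold change (shtRF minus control, x axis) of the 9 genes in red, the tested interferon receptors in green and 3 further tested JAK and STAT genes in blue, with 95% confidence intervals and filled points for an adjusted p under 0.05. IRF7, IRF9, STAT3 and STAT5B lie left of 0 as filled points, and STAT2 and STAT6 lie left of 0 as open points. No tested receptor lies left of 0.

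Across the 6 libraries the genes most like IRF9 were named by Pearson correlation of log2(CPM + 1) among 10951 genes with a mean of at least 5 CPM. The first was the longer unit that shares its exons (r = 0.9997). USP49 (r = 0.9981), a ubiquitin protease gene, and WDR35 (r = 0.9954), a gene for a ciliary transport protein, followed. WDR35 fell by 0.53 on the log2 scale. USP49 had a log2 fold change of -0.27 (adjusted p = 0.0213 by edgeR), a call lost with both limma fits (0.054 and 0.0913) and without shtRF replicate 2 (0.0926) or shtRF replicate 3 (0.0679). With 6 libraries in 2 separate groups a high r is common, and 359 genes (3.28%) exceeded 0.95.

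Under 16 other processing choices, which included leaving out each library in turn, 4 of the 9 genes kept their call each time. The log2 fold change ran from -0.78 to -0.55 for IRF7, from -0.65 to -0.50 for IRF9, from -0.31 to -0.22 for STAT3 and from 0.47 to 0.62 for IRF3. STAT2, TYK2 and IRF1 passed the test under none of them, with adjusted p of at least 0.106, 0.102 and 0.130.

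**Figure D3:**
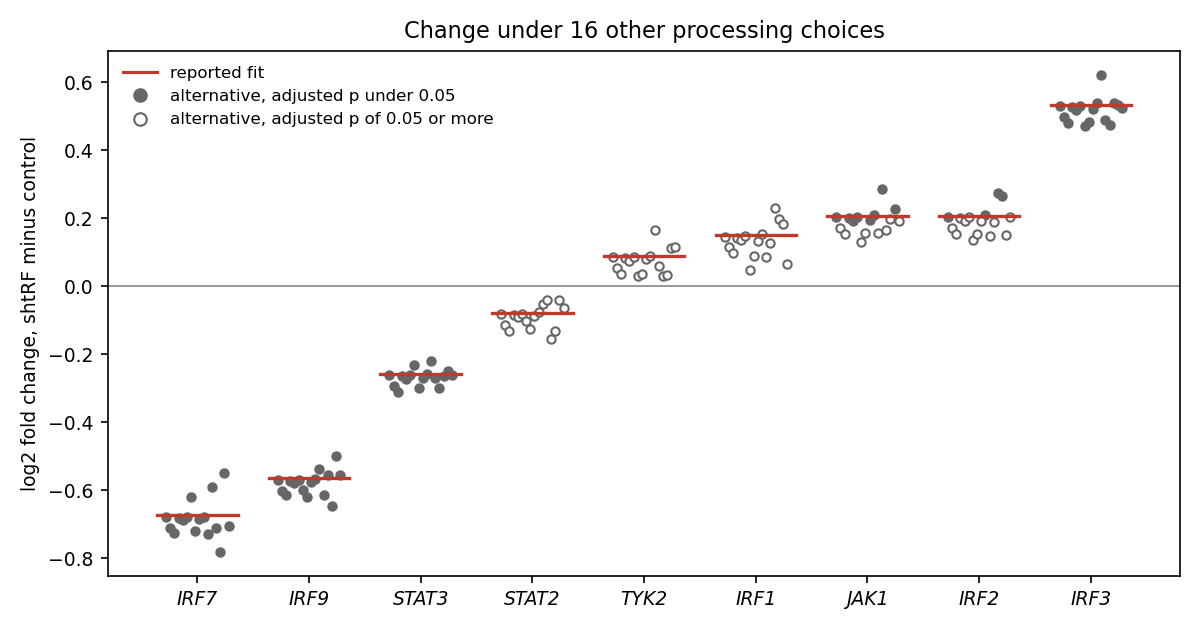
Log2 fold change (shtRF minus control, y axis) of the 9 genes in the reported fit (red bars) and under 16 other processing choices, filled where the adjusted p was under 0.05. IRF7, IRF9, STAT3 and IRF3 stay filled throughout, JAK1 and IRF2 have open points, and STAT2, TYK2 and IRF1 are open throughout.

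The balance between members was also described as a ratio of RPKM values within each library. These ratios were chosen after the values had been seen and were given no test. IRF9 over STAT2 was 9.23, 8.15 and 10.5 in control and 6.80, 6.29 and 6.63 in shtRF libraries. By these counts IRF9 was more abundant per length than STAT2 in every library. The excess was smaller in shtRF libraries with no overlap of the groups. IRF7 over IRF3 was 0.221, 0.317 and 0.277 in control and 0.134, 0.0956 and 0.120 in shtRF libraries, also with no overlap. IRF9 and IRF3 share exonic bases with other annotated units while STAT2 and IRF7 do not, so the size of both ratios is uncertain.

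Of 9 further JAK, STAT and IRF genes described here 3 were tested, with 1 higher and 1 lower (20.6% and 18.9% of all tested genes). STAT5B, a mediator of prolactin and growth hormone signalling, was scarce at 1.77, 1.96 and 1.63 CPM in control and 0.498, 0.684 and 0.774 CPM in shtRF libraries, and fell by 1.46 ± 0.236 (SE) on the log2 scale (adjusted p = 3.44e-05). JAK2, the kinase of many cytokine receptors and of the interferon gamma receptor, was higher by 0.46 ± 0.099 (SE, log2 fold change; adjusted p = 0.00066). STAT6, which serves interleukin 4, had a log2 fold change of -0.07 ± 0.063 (SE) with an adjusted p of 0.442. STAT4, STAT5A, JAK3, IRF4, IRF5 and IRF8 had at most 16 counts in any library and were not tested.

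No tested receptor message was called lower. Of 6 interferon receptor genes 5 were tested, and 2 were higher and 0 were lower by edgeR. The shares of all tested genes were 20.6% and 18.9%. The number of receptor genes lower was also 0 at an unadjusted p under 0.05 by edgeR and 0 with DESeq2. IFNAR1, a chain of the type I receptor, had 32.5, 33.6 and 29.4 CPM in control and 38.9, 38.7 and 38.1 CPM in shtRF libraries. The groups were separate, and the log2 fold change was 0.27 ± 0.062 (SE; adjusted p = 0.00117). IFNAR2, its partner chain, had 1.71, 2.49 and 1.73 CPM in control and 3.63, 3.42 and 3.37 CPM in shtRF libraries, and was higher by 0.81 ± 0.166 on the log2 scale (SE; adjusted p = 0.000442). IFNAR2 overlaps other genes over 48.4% of its exonic length, mostly the opposite-strand IL10RB-AS1, whose log2 fold change was 0.90 ± 0.204 (SE), so its change is uncertain. The interferon gamma receptor genes IFNGR1 (log2 fold change 0.10, adjusted p = 0.289) and IFNGR2 (0.15, adjusted p = 0.327) and the shared chain IL10RB (0.29, adjusted p = 0.152) did not pass. IFNGR2 and IL10RB overlap other genes over 12.8% and 12.5% of their exonic length. IFNLR1, the type III receptor gene, had 12, 10 and 11 counts in control and 6, 8 and 2 in shtRF libraries, all lower in shtRF, and was too scarce to be tested.

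The interferon genes that had a row in the count table were at the floor of detection. Of 21 ligand genes sought, 14 had a row, 0 had enough reads to be tested and none exceeded 14 counts in any library. IFNB1, IFNA1, IFNA8, IFNA10, IFNA14, IFNA21 and IFNE had no row, so their levels are not known here. Of 20 genes for sensors and adaptors upstream of IRF3 and IRF7, 17 were tested, of which 2 were higher and 5 lower, and their median log2 fold change was 0.04. Among all tested genes 20.6% were higher and 18.9% lower. The RNA sensors IFIH1 and DDX58 fell by 0.41 ± 0.056 and 0.39 ± 0.071 (SE) on the log2 scale. TRAF3, an adaptor of the sensor pathway, fell by 0.23 ± 0.070 (SE), a call lost without control replicate 3 (adjusted p = 0.0537) or shtRF replicate 1 (0.0514). AZI2, which binds the kinase TBK1, fell by 0.38 ± 0.066 (SE) but overlaps other genes over 55.4% of its exonic length, chiefly CMC1. IRAK1, a kinase of the Toll-like receptor branch, had a log2 fold change of 0.16 ± 0.051 (SE) with an adjusted p of 0.0136 by edgeR. This call was lost under 6 of the 16 other choices, among them library totals alone (adjusted p = 0.0707) and the fits without control replicate 1, control replicate 2 or shtRF replicate 3 (0.0533 to 0.0764). The number higher in this list was 0 with counts scaled to library totals alone, and the number lower was 3 without control replicate 3 or shtRF replicate 1.

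Negative regulators moved both ways. Of 20 tested genes 6 (against 20.6% of all genes) were higher and 8 (against 18.9%) lower, and the median log2 fold change was 0.12. SOCS2, a feedback inhibitor of growth hormone signalling, fell by 0.75 ± 0.091 (SE) on the log2 scale. CISH, a related STAT5 target, was higher by 0.62 ± 0.062 (SE, log2 fold change), and PIAS3, an inhibitor of STAT3, was higher by 0.55 ± 0.074 (SE, log2 fold change). IRF2BPL, a relative of the IRF2 corepressors, fell by 0.54 ± 0.091 (SE) on the log2 scale and overlaps other genes over 14.8% of its exonic length. USP18, the interferon-inducible inhibitor that binds IFNAR2, fell by 0.17 ± 0.055 (SE), a call lost without control replicate 2, shtRF replicate 1 or shtRF replicate 3 (adjusted p 0.0511 to 0.0681). The phosphatase gene PTPN11 had a log2 fold change of 0.14 ± 0.054 (SE) with an adjusted p of 0.0407 by edgeR. That call was lost under 11 of the 16 other processing choices, among them library totals alone (adjusted p = 0.145) and the fits without control replicate 1, control replicate 2, shtRF replicate 2 or shtRF replicate 3 (0.0786 to 0.215). With counts scaled to library totals alone the number higher was 3.

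Downstream of ISGF3 most genes were lower. Of 40 tested target genes 31 were lower, 1 was higher and 8 did not pass, and the median log2 fold change was -0.78. Over all tested genes 18.9% were lower and 20.6% higher. The list was drawn up with earlier results of these data known. IFI44L had 47.2, 50.2 and 48.9 CPM in control and 3.65, 3.18 and 3.66 CPM in shtRF libraries and fell by 3.80 ± 0.079 (SE) on the log2 scale. IFI27, IFI44 and MX1, the last an antiviral GTPase, fell by 2.56, 2.17 and 1.99 on the log2 scale. IFI6 fell by 1.55 ± 0.062 (SE) and BST2, the virus tether and at 790.4 RPKM in control the most abundant of the list, fell by 0.40 ± 0.059 (SE). The gene that was higher was ISG20, an exonuclease gene, at 1.03 ± 0.114 (SE, log2 fold change), named after its value had been seen. In the IFIT family, also named after its values had been seen, IFIT1 fell by 1.18 ± 0.074 (SE) and IFIT5 by 0.93 ± 0.078 (SE) on the log2 scale. IFIT2, which overlaps other genes over 10.3% of its exonic length, and IFIT3 had log2 fold changes of 0.09 and -0.08 with adjusted p of 0.323 and 0.417. Differences between these genes were not tested.

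Genes of the ISGF3 list that had a promoter window were mostly lower, with and without the ISRE letters. Of 25 tested list genes with the letters in a promoter window, 21 were lower, 1 was higher and 3 did not pass, with a median log2 fold change of -0.81. Of 9 genes with a window and no match, 8 were lower and 1 did not pass, with a median of -1.16. Of 6 tested genes of the list without a window, 2 were lower and 4 did not pass, with a median of -0.176. The list of GAS and IRF1 targets described next held 10 tested genes with the ISRE letters. Of these 3 were lower, 4 were higher and 3 did not pass, with a median of -0.0441. Differences between these groups were not tested.

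Genes known as targets of GAS elements and IRF1 were split. Of 18 tested genes in that list 6 were higher and 6 lower, against 20.6% and 18.9% of all tested genes. The median log2 fold change of the list was -0.0077. The ISRE letters were in 13 of the 16 list genes with a window (81.2%) and the GAS letters in 7 (43.8%). NLRC5, the activator of class I antigen presentation genes, fell by 0.95 ± 0.150 (SE) on the log2 scale and PSMB8, an immunoproteasome subunit that overlaps other genes over 21.2% of its exonic length, fell by 0.80 ± 0.087 (SE). The guanylate-binding protein gene GBP3 was higher by 0.96 ± 0.116 (SE, log2 fold change), and so was the adhesion molecule gene ICAM1 by 0.73 ± 0.110 (SE, log2 fold change), which overlaps other genes over 23.6% of its exonic length. WARS, a tryptophanyl-tRNA synthetase gene that overlaps other genes over 10.6% of its exonic length, had a log2 fold change of -0.07 ± 0.058 (SE) with an adjusted p of 0.337.

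Genes around STAT3 and the interleukin 6 family were likewise mixed, with 4 higher and 7 lower of 22 tested and a median log2 fold change of -0.13. The share of all tested genes was 20.6% higher and 18.9% lower, and the number higher in the list was 2 with both limma fits and without shtRF replicate 3. MYC, a growth regulator, fell by 1.48 ± 0.080 (SE) and VEGFA, an angiogenic factor, by 1.14 ± 0.073 (SE) on the log2 scale. MCL1, a survival factor, fell by 0.36 ± 0.053 (SE), and CCND1, the cyclin D1 gene, fell by 0.27 ± 0.052 (SE) and overlaps other genes over 10.3% of its exonic length. IL6ST, the signalling receptor chain of the family, was scarce at 0.861, 1.38 and 1.10 CPM in control and 1.77, 1.69 and 2.26 CPM in shtRF libraries, a difference of 0.77 ± 0.218 on the log2 scale (SE; adjusted p = 0.00744 by edgeR). This call was lost with both limma fits (adjusted p 0.0645 and 0.065) and without shtRF replicate 3 (0.055). BCL2L1, another survival factor gene, was higher by 0.66 ± 0.056 (SE, log2 fold change), with 43.0% of its exonic length overlapped by other genes, chiefly ABALON.

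**Figure D4:**
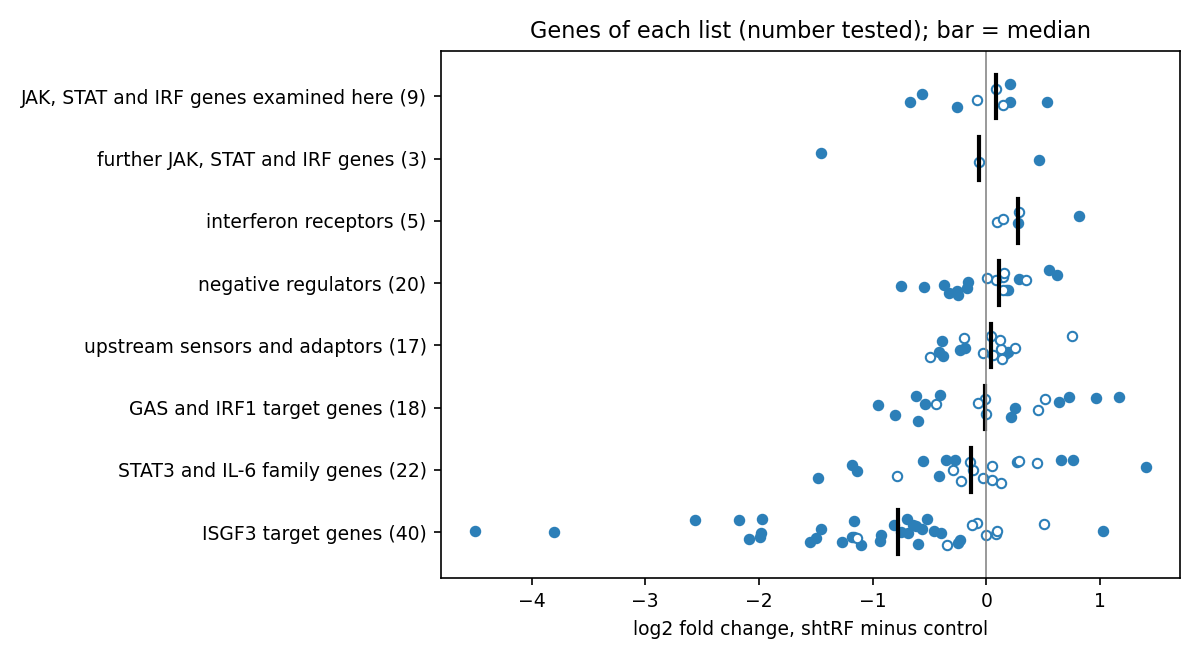
Log2 fold change (shtRF minus control, x axis) of every tested gene in each list, with the number tested in parentheses, filled points for an adjusted p under 0.05 and a black bar at the list median. The ISGF3 target genes lie mostly left of 0, with a median of -0.78, while the medians of the other lists lie between -0.13 and 0.27.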

How the data were processed

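Paired-end reads came from stranded mRNA libraries. The authors deposited counts per gene and RPKM values. Their processing notes name Trimmomatic 0.36, featureCounts of Subread 1.5.1, edgeR 3.12.1 and GRCh38. The aligner is not given in the sources used here. Of 4991 genes compared, 100% of the deposited RPKM values equalled counts per kilobase and per 1000000 counted reads (relative tolerance 1e-06), so RPKM was recomputed for all genes. Columns of the authors' own comparisons were not used. Both mates appear to be counted at low counts, where 74.2% to 77.1% of counts of 1 to 4 were even, so a count may overstate independent fragments. Gene positions of the 9 genes matched GENCODE 29 on GRCh38.

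Counts were tested with edgeR 4.0.16 in R 4.3.3: filterByExpr, TMM, the quasi-likelihood functions glmQLFit and glmQLFTest on a model of group alone, and Benjamini-Hochberg adjustment over all tested genes at 0.05. CPM was scaled with TMM factors. Errors marked SE are standard errors of log2 fold changes. The procedure was tested on simulated data. No 2 libraries of the same group were alike within sampling noise. Alternatives were RLE and upper quartile scaling, library totals alone, no filter, at least 10 counts in every library, DESeq2 1.42.0, limma 3.58.1 on log2(RPKM + 1) and log2(RPKM + 0.1), halved counts, a replicate block and leaving out each library.

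The members and gene lists were chosen with earlier results of these data known. Named genes were all 9, further JAK, STAT and IRF genes (some are not reported here and were left out of the lists), all interferon receptor genes, the 3 most like IRF9, and in each further list the 4 with the largest change (adjusted p under 0.05, mean of at least 1 CPM) and the 2 with the highest control RPKM. For genes of the lists, shared exonic bases are given from 10%.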

Additional observations from a re-analysis of the deposited data

How the results depend on the processing

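No change of the 9 genes reversed direction under any of the 16 alternatives. Of 144 values for them, 124 stayed on the same side of the threshold and 20 lost the call, all of IRF2 or JAK1. Of 624 values for other named genes, 594 stayed, 29 lost the call and 1 gained it (IL10RB without shtRF replicate 3, adjusted p = 0.0496). The log2 fold change of IRF2 lost the call with upper quartile scaling (0.170), library totals alone (0.153), no filter (0.200), at least 10 counts in every library (0.193), DESeq2 (0.204), limma on log2(RPKM + 1) (0.135), limma on log2(RPKM + 0.1) (0.153) and halved counts (0.193), and ranged from 0.148 to 0.273 when 1 library was left out. That of JAK1 lost it with upper quartile scaling (0.170), library totals alone (0.153), limma on log2(RPKM + 1) (0.131) and limma on log2(RPKM + 0.1) (0.155), and ranged from 0.157 to 0.287 when 1 library was left out. Hence the number of the 9 genes called higher was 1 under those 4 alternatives and 1 to 2 with 1 library left out, against 3 (1 without control replicate 1 or shtRF replicate 3). The number higher among negative regulators was 3 under the same 4 alternatives and 3 to 6 with 1 library left out, and the number lower was 5 to 8 (3 higher without shtRF replicate 2, and 5 lower without control replicate 2 or shtRF replicate 1). Among sensors and adaptors the number higher was 0 with upper quartile scaling, library totals alone and limma on log2(RPKM + 0.1), 1 with limma on log2(RPKM + 1) and 1 to 2 with 1 library left out, and the number lower was 3 to 6 (1 higher without control replicate 1, control replicate 2, shtRF replicate 2 or shtRF replicate 3, and 3 lower without control replicate 3 or shtRF replicate 1). Among STAT3 and interleukin 6 family genes the number higher was 2 with both limma fits and 2 to 4 with 1 library left out (2 without shtRF replicate 3). The causes were not tested. Of all calls 52.2% were higher, against 45.7% with upper quartile scaling, 42.7% with library totals alone and 43.3% and 43.1% with the limma fits. Same-numbered libraries of the groups deviated together only weakly (r = 0.0592, 0.0178 and 0.0174). The labels do not say that they were paired, and a weak correlation cannot decide whether they shared a batch. A replicate block changed no call of the 9 genes, giving 3 higher and 3 lower.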
